A study of Homo sapiens with 17 samples.

Results

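The NDRG family, named for N-Myc downstream regulated genes, comprises NDRG1 and its 3 paralogs NDRG2, NDRG3 and NDRG4. The members were taken by gene symbol from the deposited expression table, and all 4 were found among its 27315 genes. NDRG1 was selected on its log2 differences between guides and control, which are among the lowest in both experiments, and the paralogs entered through their relation to it. The values of NDRG1 for guides against control are therefore given as a description, without a test. All 4 members passed the filter on low values, which left 12484 genes for testing.

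RNA was profiled in 786-O, a human clear cell renal carcinoma line without functional VHL, in which HIF2a protein accumulates. All groups, controls included, received a CRISPR lentivirus (Cas9 with 1 guide RNA) and were grown under antibiotic selection. The groups were HIF2a sg4 and HIF2a sg6, with guides against HIF2a (gene symbol EPAS1), and a scrambled-guide control for that experiment, and USP37 sg3 and USP37 sg9, with guides against the deubiquitinase USP37, and a separate scrambled-guide control. Each group had 3 libraries, apart from the USP37 control, which had 2 (replicates 2 and 3). Whether replicates are separate cultures, and whether the infected cells were cloned, is not stated in the labels. The p-values therefore cover the spread between these libraries, which may be technical. The deposited values are variance-stabilised and batch-corrected, on a scale close to log2 with a floor of 5.14. The scale flattens towards that floor and is not divided by gene length, so levels are not compared between genes and differences of weakly expressed genes are understated. The depth of the libraries is unknown.

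NDRG proteins have the fold of alpha/beta hydrolases but lack the catalytic residues of those enzymes. NDRG1 is repressed by N-Myc and c-Myc and induced by hypoxia, iron chelation and differentiation, and its loss causes a recessive demyelinating neuropathy. NDRG2 is abundant in brain and muscle and is often silenced in tumours. NDRG3 protein is hydroxylated by the HIF prolyl hydroxylase EGLN1 and is stabilised in hypoxia by lactate binding. NDRG4 is mainly a gene of heart and brain, and methylation of its promoter is used as a marker of colorectal cancer.

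The hypoxia response factors bind a core of ACGTG or GCGTG, and the promoter sequences at hand show what the paralogs carry at their starts. RefSeq promoter windows of 300 bases (250 before and 50 after a start, build GRCh38.p14) matched 2 of the 4 members, with 5 windows for NDRG2 and 4 for NDRG4. Both cores were searched on both strands (CACGT and CACGC are their complements). The core ACGTG also lies within CACGTG, the site of Myc proteins, which none of the 9 windows held. A core was present in 3 of 5 windows of NDRG2, at 2 distinct positions since 2 of these windows overlap and hold the same core, and in 1 of 4 windows of NDRG4, and in 48.4% of all 35116 windows. The windows below, 1 of NDRG2 and 1 of NDRG4, are shown because they hold a core (in capitals, on either strand). They lie at chr14:21025056-21025355 on the minus strand and chr16:58463465-58463764 on the plus strand, and a match is a description of the letters only.
NDRG2: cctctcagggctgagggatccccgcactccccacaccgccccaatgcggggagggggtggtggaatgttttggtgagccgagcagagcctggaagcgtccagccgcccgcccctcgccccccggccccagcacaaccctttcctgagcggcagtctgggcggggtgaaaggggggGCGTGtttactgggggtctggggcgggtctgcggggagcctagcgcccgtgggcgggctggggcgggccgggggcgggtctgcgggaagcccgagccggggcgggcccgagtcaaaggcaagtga
NDRG4: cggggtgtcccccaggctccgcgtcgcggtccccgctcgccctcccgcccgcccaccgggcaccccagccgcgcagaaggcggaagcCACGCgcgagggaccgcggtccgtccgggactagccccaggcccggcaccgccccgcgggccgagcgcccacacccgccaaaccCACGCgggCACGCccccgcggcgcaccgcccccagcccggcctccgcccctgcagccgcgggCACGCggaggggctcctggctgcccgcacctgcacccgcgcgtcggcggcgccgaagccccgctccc

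The library facts that touch the members are few. The targeted gene EPAS1 was at 9.43 to 9.70 with HIF2a sg4, 10.11 to 10.48 with sg6 and 11.76 to 12.01 in the HIF2a control. USP37 was at 8.23 to 8.43 with USP37 sg3, 8.04 to 8.30 with sg9 and 9.15 to 9.33 in the USP37 control. USP37 was also lower with the HIF2a guides (-0.44, limma adjusted p = 0.00903). That call was lost without HIF2a control library 1 (-0.39) or 2 (-0.36), and without the 3 outlying libraries named below (-0.26). The renal lineage factor PAX8 (12.18 to 12.99) was present in every library. Of 4 markers of 293T packaging cells, LIN28B, INA and NEFM stayed within 0.92 of the floor, while NEFL was at 10.55 to 11.95 and fell with the HIF2a guides (-0.70) and with the USP37 guides (-0.68). The summed level of these 4 above the floor was 6.11 to 6.64 with HIF2a sg4, 6.56 to 6.88 with sg6 and 6.73 to 7.11 in the HIF2a control, and 5.97 to 6.60 with USP37 sg3, 5.88 to 6.39 with sg9 and 6.37 to 7.26 in the USP37 control. NEFL made up most of this sum, so its ranges mainly follow that gene. The summed level of 4 leukocyte markers was 3.25 in USP37 control library 3 and at most 1.48 in the other libraries. The part of these marker genes in the results was not tested. Without USP37 control library 3 the NDRG1 difference for the USP37 guides was -2.54, against -2.51 with it. HIF2a sg6 libraries 2 and 3 and HIF2a control library 2 stood apart from their groups in earlier results of these data, and results are also given without these 3 outlying libraries where a call changes. That leaves 1 sg6 library and 2 HIF2a control libraries, so the spread of the lone sg6 library is taken from the other groups.

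NDRG1 was lower with every guide, in every library. With HIF2a sg4 the 3 libraries were at 10.58, 9.96 and 10.11, and with sg6 at 11.19, 10.92 and 11.10, against 14.15, 13.90 and 13.73 in the HIF2a control. The highest guide library lay 2.55 below the lowest control library. NDRG1 averaged 10.22 ± 0.32 with sg4, 11.07 ± 0.14 with sg6 and 13.93 ± 0.21 in the control (SD, n = 3 each). The log2 difference was -3.28 for the mean of the guides (SE 0.17), -3.71 for sg4 and -2.86 for sg6 (SE 0.19 each), and the mean difference corresponds to 0.103 of the control level on this scale. Of the 12484 tested genes, 8 had a lower difference than NDRG1. For all genes, 14.5% were called lower in this comparison (limma, Benjamini-Hochberg adjusted p under 0.05), and 25.2% had guide and control libraries that did not overlap. Within the libraries of a single replicate number the difference was -3.26, -3.46 and -3.13.

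In the USP37 experiment NDRG1 was at 12.45, 11.87 and 11.92 with sg3 and at 12.81, 12.06 and 11.90 with sg9, against 14.71 and 14.65 in the USP37 control. The guide libraries lay at least 1.84 below both control libraries. The averages were 12.08 ± 0.32 with sg3 and 12.26 ± 0.49 with sg9 (SD, n = 3 each), against 14.68 ± 0.04 in the control (SD, n = 2). The log2 difference was -2.51 for the mean of the guides (SE 0.19), -2.60 for sg3 and -2.42 for sg9 (SE 0.21 each), or 0.175 of the control level for the mean. Of all tested genes, 4 had a lower difference, and 21.9% were called lower and 41.2% had guide and control libraries that did not overlap. Within replicate numbers 2 and 3 the difference was -2.75 and -2.74. There is no USP37 control library numbered 1, and the means of the replicate numbers had been made equal. For a gene high in that control, this can raise the guide libraries numbered 1 and make its fall look smaller. With the replicate number in the fit, the NDRG1 difference was -2.68 (SE 0.12).

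**Figure D1:**
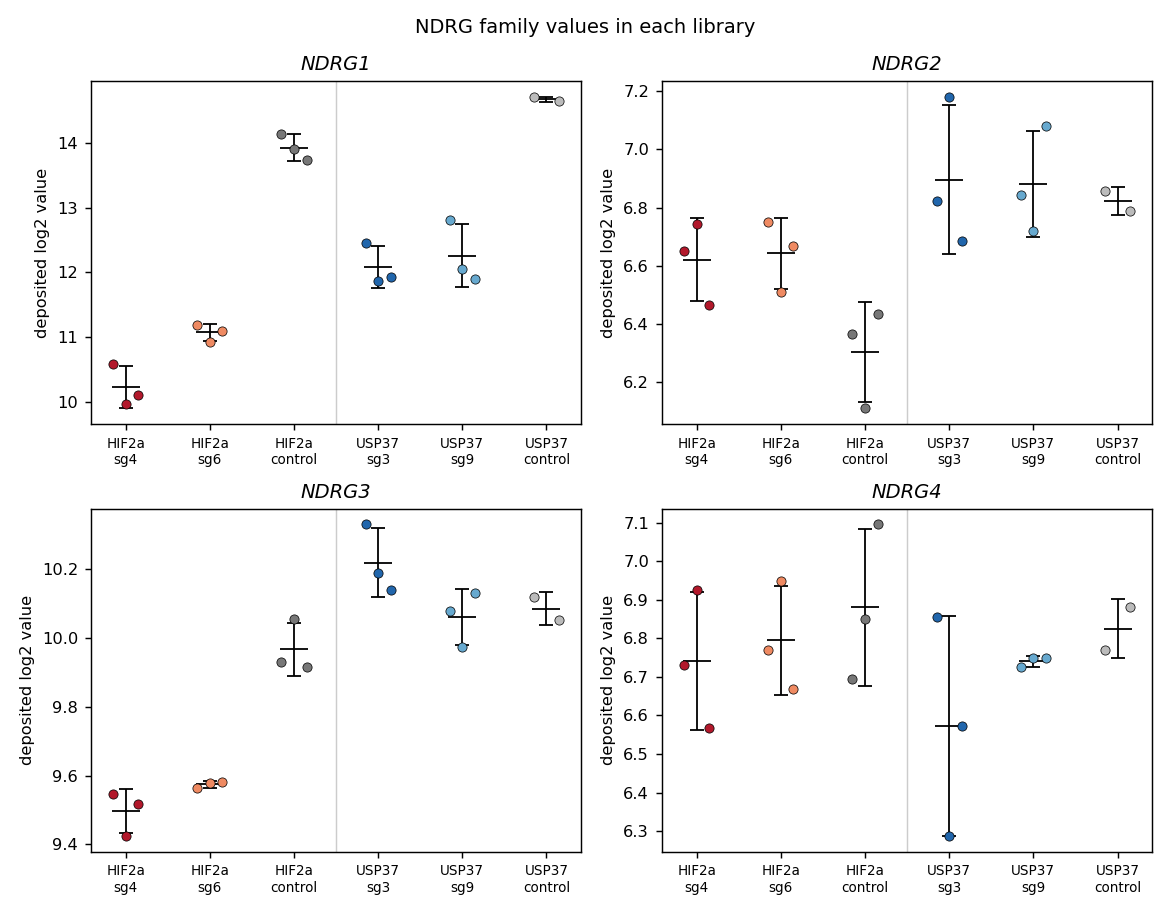
Deposited log2 value of each NDRG gene in each library (points), with the group mean and SD (bars), for the 6 groups. The vertical axes differ between panels and do not start at 0: NDRG1 spans 9.96 to 14.71 with every guide library below the control libraries of its experiment, and NDRG3 is lower with the HIF2a guides only.

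The 6 groups fell in the order HIF2a sg4, HIF2a sg6, USP37 sg3, USP37 sg9, HIF2a control and USP37 control, from low to high NDRG1. Libraries of neighbouring groups in this order overlapped for USP37 sg3 and USP37 sg9 only. The share of all genes whose libraries lie apart between such single groups, guides or controls, was not counted. The HIF2a guides differed from each other at NDRG1, with sg6 higher than sg4 by 0.85 (SE 0.19, 95% interval 0.45 to 1.25, limma adjusted p = 0.00706), and all 3 sg6 libraries lay above all 3 sg4 libraries. In this comparison 9.22% of all genes were called. The call was lost without sg4 library 2 (difference 0.72, adjusted p = 0.0608), and the adjusted p ranged from 0.000116 to 0.0608 over 26 alternatives. EPAS1 itself was higher with sg6 than with sg4 by 0.81 (SE 0.12, limma adjusted p = 0.000154). The USP37 guides were not called as different at NDRG1 (sg9 minus sg3 0.18, 95% interval -0.22 to 0.58, limma adjusted p = 0.517), where 30.8% of all genes were called.

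NDRG1 and EPAS1 mRNA differed to unequal extents in the experiments, and HIF2a protein was not measured in these data. With HIF2a sg4 the log2 difference from control was -3.71 for NDRG1 and -2.37 for EPAS1, and with sg6 it was -2.86 for NDRG1 and -1.57 for EPAS1. With USP37 sg3 it was -2.60 for NDRG1 and -0.66 for EPAS1, and with sg9 -2.42 for NDRG1 and -0.77 for EPAS1. EPAS1 fell with each of these guides (limma adjusted p from 2e-12 to 0.000603).

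The scrambled controls also differed at NDRG1. The USP37 control was higher than the HIF2a control by 0.75 (SE 0.21, limma adjusted p = 0.00817), in a comparison where 40.5% of all genes were called, and all libraries of the 2 controls were apart. That call was lost without USP37 control library 2 (difference 0.73, adjusted p = 0.056). Control and experiment cannot be told apart here. NDRG1 averaged 12.17 over the USP37 guides and 10.64 over the HIF2a guides, a difference of 1.52 between the guide means. Set against their own controls, the effect of the USP37 guides minus the effect of the HIF2a guides was 0.77 (SE 0.25), given without a test. With the replicate number in the fit, this difference of effects was 0.61 (SE 0.15). In that fit the controls differed at NDRG1 by 0.92 (SE 0.13, limma adjusted p = 2.41e-05).

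NDRG3 was the only paralog called for guides against control in the analysis as given, and it was called lower with the HIF2a guides only. Of all tested genes, 30.6% were called with the HIF2a guides (14.5% lower) and 44.3% with the USP37 guides. NDRG3 is described first in the HIF2a experiment. It was at 9.55, 9.42 and 9.52 with sg4 and at 9.56, 9.58 and 9.58 with sg6, against 9.93, 10.05 and 9.92 in the HIF2a control. The guide and control libraries did not overlap, which held for 25.2% of all tested genes. NDRG3 averaged 9.50 ± 0.06 with sg4, 9.57 ± 0.01 with sg6 and 9.97 ± 0.08 in the control (SD, n = 3 each). It fell by 0.43 on the log2 scale (SE 0.07, 95% interval -0.58 to -0.28, limma adjusted p = 9.37e-05), by 0.47 with sg4 (SE 0.08, limma adjusted p = 0.000224) and by 0.39 with sg6 (SE 0.08, limma adjusted p = 0.00126). Of all genes, 12.1% were called lower with sg4 and 13.8% with sg6. Within replicate numbers the NDRG3 difference was -0.37, -0.55 and -0.37. The fall with both guides together was called in all 26 alternatives that give an adjusted p (8.59e-05 to 0.00291). The exact two-sided permutation test over the 9 libraries gave an unadjusted p of 0.0119, the smallest that 84 splits allow. For sg6 alone the call was lost without the 3 outlying libraries, which leaves 1 sg6 library (difference -0.36).

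In the USP37 experiment NDRG3 was at 10.33, 10.19 and 10.14 with sg3 and at 10.08, 9.97 and 10.13 with sg9, against 10.12 and 10.05 in the control. The groups overlapped, and NDRG3 was not called (difference 0.05, 95% interval -0.12 to 0.23, limma adjusted p = 0.624). The difference between the experiments was itself called, with the USP37 effect above the HIF2a effect by 0.49 (SE 0.11, limma adjusted p = 0.00175), as it was for 38.6% of all genes. The guides of neither experiment were called as different at NDRG3 (sg6 minus sg4 0.08, limma adjusted p = 0.618, and sg9 minus sg3 -0.16, limma adjusted p = 0.161), nor were the controls (0.12, limma adjusted p = 0.331).

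NDRG2 was weakly expressed, with group means 1.16 to 1.75 above the floor. It was at 6.65, 6.74 and 6.46 with HIF2a sg4 and at 6.75, 6.51 and 6.67 with sg6, against 6.37, 6.11 and 6.43 in the HIF2a control. The lowest guide library stood 0.03 above the highest control library. Guide and control libraries did not overlap for 25.2% of all tested genes. The difference of 0.33 (SE 0.13, 95% interval 0.07 to 0.59) was not called (limma adjusted p = 0.054), and neither unadjusted p is a call (0.0169 in limma and 0.0119, the smallest possible, in the exact two-sided permutation test over the 9 libraries). The adjusted p was below 0.05 in 6 of 25 alternatives and ranged from 0.036 to 0.261.

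In the USP37 experiment NDRG2 was at 6.82, 7.18 and 6.68 with sg3 and at 6.84, 6.72 and 7.08 with sg9, against 6.86 and 6.79 in the control. These groups overlapped (difference 0.07, 95% interval -0.24 to 0.37, limma adjusted p = 0.736). The largest NDRG2 difference lay between the controls, where the USP37 control was higher than the HIF2a control by 0.52 (SE 0.16, limma adjusted p = 0.015). The call between the controls was lost without HIF2a control library 2 (difference 0.42, adjusted p = 0.0677), without USP37 control library 2 (0.49, adjusted p = 0.0853) or 3 (0.55, adjusted p = 0.056), and without the 3 outlying libraries (0.42, adjusted p = 0.071). The effects of the experiments were not called as different (-0.26, SE 0.19, limma adjusted p = 0.297).

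NDRG4 was also near the floor, with group means 1.43 to 1.74 above it. It was at 6.73, 6.92 and 6.57 with HIF2a sg4 and at 6.77, 6.95 and 6.67 with sg6, against 6.69, 6.85 and 7.10 in the HIF2a control. In the USP37 experiment it was at 6.86, 6.29 and 6.57 with sg3 and at 6.72, 6.75 and 6.75 with sg9, against 6.77 and 6.88 in the control. Groups overlapped in both experiments. The difference was -0.11 for the HIF2a guides (95% interval -0.38 to 0.15, limma adjusted p = 0.556) and -0.17 for the USP37 guides (95% interval -0.48 to 0.14, limma adjusted p = 0.369). No comparison between groups was called at NDRG4, in the analysis as given or in any of its alternatives.

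**Figure D2:**
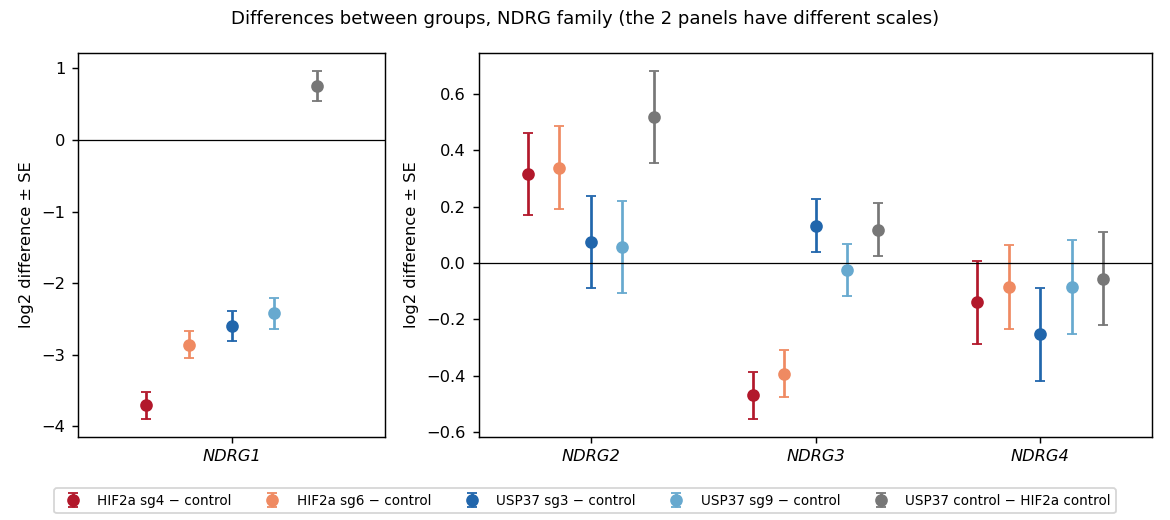
Log2 difference with its standard error for each NDRG gene, for each guide against the control of its experiment and for the USP37 control minus the HIF2a control. NDRG1 lies between -3.71 and -2.42 for the 4 guides, while the paralogs lie between -0.47 and 0.34 for the guides, on a separate, enlarged axis, and NDRG2 reaches 0.52 between the controls.

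Transcription regulators named for NDRG genes were described from a list of 18, of which 15 were tested. With the HIF2a guides 3 were higher and 4 lower, against 30.6% of all genes called (16.1% higher and 14.5% lower). The growth-induced factor EGR1 (-1.82), the kidney developmental factor WT1 (-0.91) and MYC (-0.28) were among those that fell, and ARNT2 (1.14) and HIF1A (0.90) rose. With the USP37 guides 3 were higher and 5 lower, against 44.3% of all genes (22.4% higher and 21.9% lower). MYC (0.90) and EGR1 (0.58) rose, and ARNT, the partner of HIF alpha subunits (-0.98), and MYCL (-0.80) fell. MYC fell with the HIF2a guides (limma adjusted p = 0.0131) and rose with the USP37 guides (limma adjusted p = 3.24e-07), and these effects differed (1.17, limma adjusted p = 3.39e-07). The part of MYC in the NDRG1 values was not tested. With sg6 alone MYC was at -0.20 (limma adjusted p = 0.112). The fall of MYC was not called without HIF2a control library 3 (difference -0.19, adjusted p = 0.124), and between the controls MYC differed by -0.43 (USP37 minus HIF2a, limma adjusted p = 0.00262). HIF1A also differed between the controls, by 0.81 (USP37 minus HIF2a, limma adjusted p = 2.5e-05), where 40.5% of all genes were called. ARNT2 differed there by -1.35 (limma adjusted p = 5.24e-06). HIF1A protein was not measured. MYCN, the gene of N-Myc, stayed at or below 5.36 in every library.

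Kinases that act on NDRG proteins, kinases upstream of them and mTORC2 subunits were described from a list of 15 genes, all tested. SGK1 phosphorylates NDRG1 and NDRG2 and primes NDRG1 for GSK3, and mTORC2 activates SGK1. With the HIF2a guides 1 kinase-list gene was higher and 4 were lower, a share near the 30.6% of all genes called. SGK2 (-0.63) and GSK3B (-0.39) were among those that fell, while SGK1 was at 0.29 (limma adjusted p = 0.0579). GSK3B with sg6 alone was at -0.31 (limma adjusted p = 0.0543). PRR5, an mTORC2 subunit, was higher by 0.53 over both guides, but by 0.89 with sg6 and 0.18 with sg4 (limma adjusted p = 6.46e-05 and 0.405), and the guides differed (sg6 minus sg4 0.71, limma adjusted p = 0.00307). Without the 3 outlying libraries 2 genes of the list were lower. With the USP37 guides 3 were higher and 2 lower, below the 44.3% of all genes called. SGK1 (0.85) and the mTORC2 subunit MAPKAP1 (0.45) rose, SGK2 (-0.62) was among those that fell, and GSK3B was at 0.08 (limma adjusted p = 0.601). With 1 library left out the lower genes numbered 1 (USP37 control library 2) or 0 (USP37 control library 3), and without the 3 outlying libraries 5 were higher and 4 lower. The lower call was lost for SGK2 without USP37 control library 3 (-0.41, adjusted p = 0.0659). Phosphorylation was not measured.

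Reported partners of NDRG proteins were described from a list of 8, of which 7 were tested, and CDH1 was below the filter. With the HIF2a guides 3 fell and 0 rose, where 30.6% of all genes were called. They were the DNA repair methyltransferase MGMT (-2.00), the mitotic kinesin KIF20A (-0.31) and RAB4A, a recycling endosome GTPase that binds NDRG1 (-0.28). KIF20A was at -0.56 with sg6 and -0.06 with sg4 (limma adjusted p = 1.42e-05 and 0.674), and the guides differed (sg6 minus sg4 -0.51, limma adjusted p = 0.000346). RAB4A with sg6 alone was at -0.23 (limma adjusted p = 0.0824), and its call over both guides was lost without HIF2a control library 1 (-0.24, adjusted p = 0.0918) and without the 3 outlying libraries (-0.28, adjusted p = 0.0818). With the USP37 guides the ubiquitin ligase NEDD4L (-0.51) and KIF20A (-0.40) fell and the chaperone HSPA8 (0.82) rose, 3 of 7 where 44.3% of all genes were called.

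HIF target genes gave the scale on which to read NDRG1. Of 18 listed, 16 were tested and all were chosen with earlier results of these data known. With the HIF2a guides 10 were lower and 3 higher (median -1.42, against 0.00 for all genes, of which 14.5% were called lower), and the HIF prolyl hydroxylase EGLN3 (-3.72) alone had a lower difference than NDRG1. The growth factor gene TGFA (-2.42) and the vasodilator peptide gene ADM (-2.16) were also among those that fell. With the USP37 guides 14 were lower and 0 higher (median -0.67, against 0.01 for all genes, of which 21.9% were called lower), and none had a lower difference than NDRG1. The growth factor binding protein IGFBP3 (-2.08) and DDIT4, an mTOR inhibitor (-1.99), were nearest. Between the controls 9 of the 16 were higher in the USP37 control and 1 lower, against 20.1% of all genes higher and 20.4% lower, and NDRG1 was higher there.

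**Figure D3:**
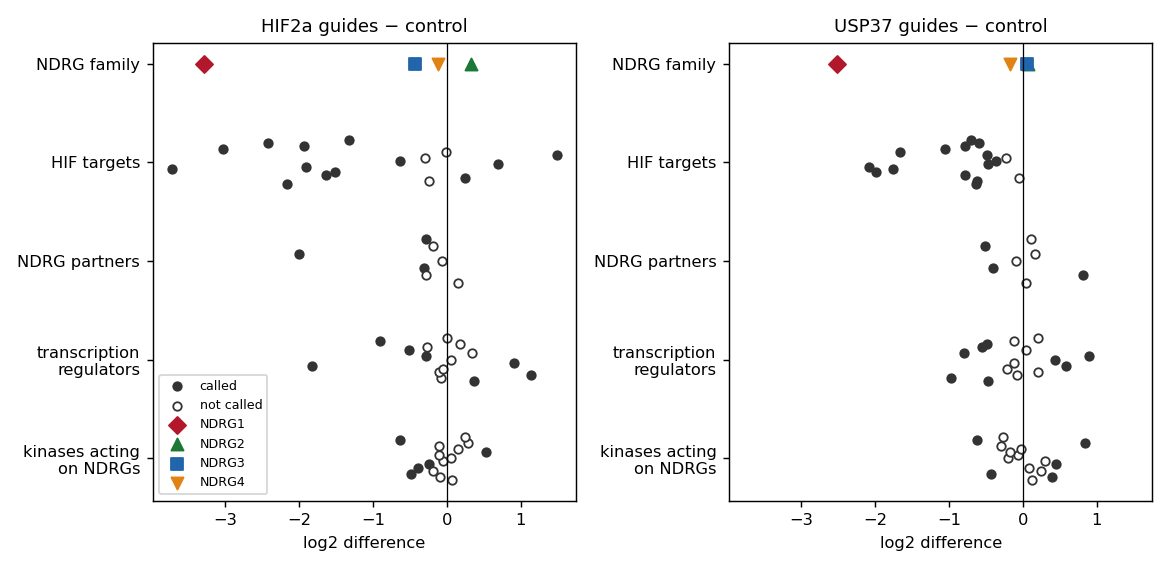
Log2 difference of the mean of the guides from control for the NDRG genes and for tested genes of the 4 lists, in the HIF2a experiment (left) and the USP37 experiment (right). Filled circles are genes called at an adjusted p under 0.05. The kinase row also holds upstream kinases and mTORC2 subunits. NDRG1 lies at -3.28 and -2.51, and its 3 paralogs lie between -0.43 and 0.33.

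The genes whose pattern was most like NDRG1 were ranked by Pearson r over the 17 libraries, as a description. The points share experiments and controls, and the groups lie apart, so r follows the group differences. There were 87 genes with r above 0.9. Among the 8 highest were the carbonic anhydrase CA12 (0.97), EGLN3 (0.97), the retinaldehyde dehydrogenase ALDH1A1 (0.97), LOC613266 (0.97), the sarcosine dehydrogenase SARDH (0.97), ZNF395 (0.96) and the repressor BHLHE40 (0.96). The r of these genes stayed between 0.95 and 0.98 when any 1 library was left out. After group means were taken out, r was 0.67 to 0.92, with ZNF395 highest. For every gene the replicate-number means had been made equal, and number 1 has no USP37 control library. For a gene high in that control, this can raise the libraries numbered 1 in every group. Genes with the group pattern of NDRG1 share such a shift, so this r cannot show a likeness apart from the group differences. NDRG3 was most like the potassium channel gene KCNK1 (r = 0.99), the homeobox factor gene PBX3 (0.97) and RSBN1L (0.97), and KCNK1 differed by -0.99 with the HIF2a guides and by -0.02 with the USP37 guides. For NDRG2 the highest r was 0.86 (LIN52) and for NDRG4 it was 0.73 (PLEKHF1).

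**Figure D4:**
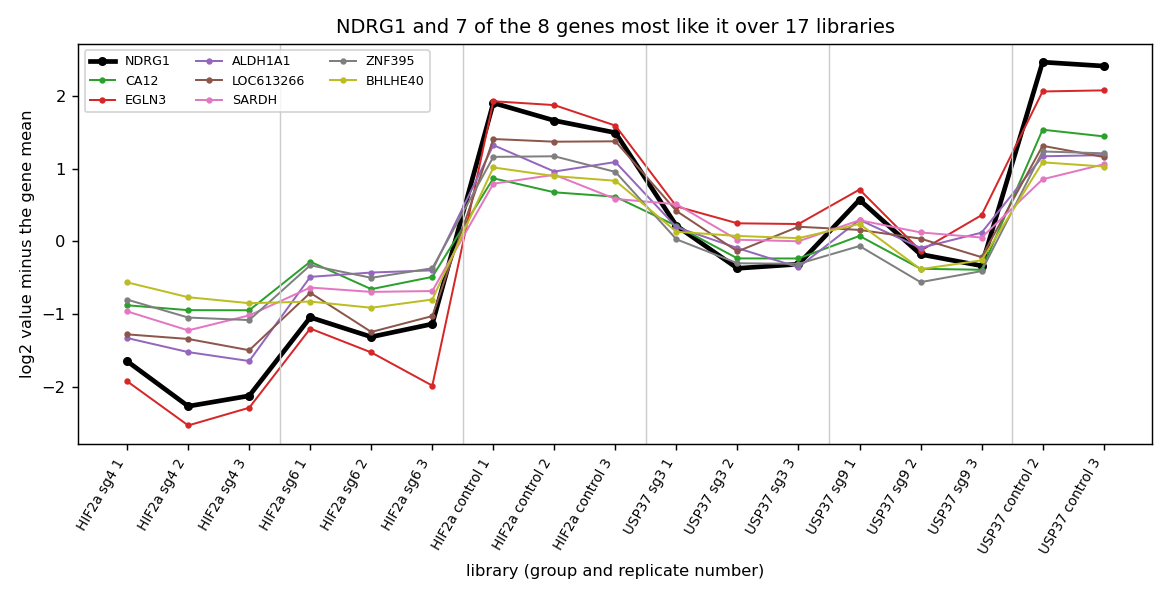
Log2 value minus the gene's own mean in each of the 17 libraries for NDRG1 (thick black line) and 7 of the 8 genes with the highest Pearson r to it. Their group means lie lowest with HIF2a sg4 or sg6, between with the USP37 guides and highest in the controls; lines join the values of 1 gene and imply no order of libraries.

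Genes beside the members on their chromosomes were taken from the RefSeq gene order, 5 tested genes on each side. Over all genes, 16.1% were called higher and 14.5% lower with the HIF2a guides, 22.4% and 21.9% with the USP37 guides, and 20.1% and 20.4% between the controls. Beside NDRG1 on chromosome 8, 2 of 10 were higher and 3 lower with the HIF2a guides (median -0.10, lowest -0.62), and 1 was higher and 3 lower with the USP37 guides (median -0.17, lowest -1.03). Beside NDRG3 on chromosome 20, 5 of 10 were lower and 0 higher with the HIF2a guides, and their median of -0.26 compares with -0.03 for the 340 tested genes of that chromosome and -0.43 for NDRG3. With the USP37 guides the NDRG3 neighbours had a median of 0.07, with 3 higher and 3 lower. These 10 neighbours include TGIF2, C20orf24 and their read-through entry TGIF2-C20orf24, so they are not all separate genes. Beside NDRG2 on chromosome 14, the controls differed by a median of 0.21 (5 of 10 higher in the USP37 control and 2 lower), against 0.23 for the 405 tested genes of the chromosome and 0.52 for NDRG2. The NDRG2 neighbours had a median of 0.13 with the HIF2a guides (2 higher and 1 lower), against 0.12 for their chromosome. Beside NDRG4 on chromosome 16, 4 of 10 were higher and 0 lower with the HIF2a guides (median 0.22), where NDRG4 was at -0.11. The 552 tested genes of chromosome 16 had a median of 0.12 in that comparison. The part of chromosome position in these differences was not tested. NDRG2 overlaps ARHGEF40, which had a mean of 10.56 and differed by 0.31 with the HIF2a guides (limma adjusted p = 0.00302). The library kit does not mark strand, so reads of ARHGEF40 and NDRG2 cannot be told apart where the genes overlap.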

How the data were processed

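RNA-seq libraries of polyadenylated RNA from 17 samples of 786-O cells were analysed. The authors deposited 1 table of variance-stabilised, batch-corrected values on a log2 scale, as the table's name and values show; STAR 2.5.2b, Salmon, cutadapt, DESeq2 and hg19 are listed, without roles, in the submitters' processing notes. The batch variable is not given in the sources used here; for every gene the means of replicate numbers 1, 2 and 3 agreed within 6.4e-14. Depth is unknown and no counts were recovered.

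Genes were tested if their mean exceeded the lowest percentile of means by 1 log2 unit or more. The 6 group means were fitted with limma 3.58.1 (R 4.3.3), using a trended prior variance (residual df 11, which may be too many because a replicate term had been removed; 9 with that term fitted) and Benjamini-Hochberg adjustment over all tested genes; a gene was called at an adjusted p under 0.05. The fit was tested on simulated data. Named genes are the members, the targeted genes, up to 4 called genes of each list and experiment, SGK1, GSK3B, MYC and HIF1A, and the genes with the highest r to a member (8 for NDRG1, 3 for the others). ARHGEF40 and MYCN were named after their values were seen. Members and lists were chosen with earlier results of these data known. Alternatives changed the filter, the normalization, the weights, the moderation, the replicate term and the libraries kept. Sequences of NDRG1 and NDRG3 were not used here, and some genes that the rule names are not reported here.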

Additional observations from a re-analysis of the deposited data

Results flagged for a closer look

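NDRG3 differed between the experiments, in a comparison where 38.6% of all genes were called. The effect of the USP37 guides minus the effect of the HIF2a guides was 0.4853 on the log2 scale (limma adjusted p = 0.00175), since NDRG3 fell with the HIF2a guides and was not called with the USP37 guides. It was called in all 25 alternatives, with values of 0.44 to 0.52 and adjusted p from 0.00144 to 0.0177. The lowest value was without HIF2a control library 2 and the highest adjusted p without USP37 control library 3.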

How the results depend on the processing

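The NDRG1 differences for guides against control kept their direction and moved by less than the spread between replicates in all alternatives, from -3.39 to -3.17 for the HIF2a guides and from -2.68 to -2.42 for the USP37 guides. NDRG1 in sg6 minus sg4 was 0.72 to 1.03 with 1 library left out. NDRG2 with the HIF2a guides was 0.3283 and passed the threshold when the HIF2a libraries were fitted by themselves (adjusted p = 0.036) or no trend was used (adjusted p = 0.0362), and was 0.23 to 0.39 with 1 library left out, called without sg4 library 3, sg6 library 2 or USP37 sg3 library 2 or 3. Calls over all genes for the USP37 guides were 5525, and 3683 to 5854 with 1 library left out, the lowest without USP37 control library 2. Calls for sg6 against sg4 were 1151, 573 with array weights, 500 without sg4 library 2, 612 without sg4 library 3 and 413 without the 3 outlying libraries. Calls for HIF2a sg6 against control were 3624 and 2021 without those 3 libraries, those for sg4 against control 3159 and 5150 with array weights, and those between the controls 5051 and 3347 without USP37 control library 3. Where 1 library is left in a group, its spread is taken from the other groups. This holds for the USP37 control with 1 of its libraries left out, and for sg6 without the 3 outlying libraries. Among the lists, regulators lower with the USP37 guides numbered 3 without USP37 control library 2, against 5, and partners lower with the HIF2a guides numbered 5 with array weights, against 3. The stricter filter removed NDRG2 and NDRG4 from testing.

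With the replicate number as a replicate block, the NDRG1 difference for the USP37 guides was -2.68 and no call of a member changed. Whether a number marks a shared culture or day could not be read from these values: the mean of each number had already been removed, which pushes the correlations of same-number libraries below 0 (median -0.151 after group means were taken out). The fit without the block counts 11 residual degrees of freedom and the fit with it 9. Depth is unknown, and the values of NDRG2 and NDRG4 near the floor limit what can be seen there.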
